A study of Rattus norvegicus with 12 samples.

Results

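The genes described here are 10 components of the circadian clock: Per1, Per2, Per3, Cry1, Cry2, Clock, Nr1d1, Nr1d2, Dbp and Bhlhe40. They were chosen by name, as every probe of the arrays that carries one of these gene names, which gave 15 probes among 41012 (10 of 33212 gene names). The arrays compared PACAP38-treated with control PC12 cells, a line derived from a rat adrenal pheochromocytoma that extends neurites under pituitary adenylate cyclase-activating polypeptide (PACAP). PACAP38, its form of 38 residues, was given at 1e-07 M, and RNA was taken at 6 times from 5 to 120 min (5, 10, 15 and 30 min, then 60 and 120 min), with a control at each. Control and treated cells shared the same growth medium with fetal bovine and horse serum, and the labels name no other agent. For each condition and time the RNA was pooled before labelling (n = 6 by the methods of the study, which do not say what the 6 are), and both pools of a time were hybridized on 2 two-colour arrays, with PACAP38 in Cy5 on one and in Cy3 on the other. A time point is thus 1 replicate, its error is shown by the fold of each array, and the design allows no test of PACAP38 against control within a time point. In pooled RNA, a change in fewer cells and a smaller change in every cell cannot be told apart.

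In the mammalian clock, CLOCK and BMAL1 (Arntl on these arrays) bind E-boxes and switch on the Per and Cry genes, whose proteins return to the nucleus and repress CLOCK and BMAL1. A second loop runs through Nr1d1 and Nr1d2, which encode the REV-ERB repressors of Bmal1, and outputs such as Dbp pass the rhythm on through D-boxes. Some of these genes also answer acute stimuli within the hour: Per1 is a known cAMP- and CREB-responsive gene, and PACAP is a transmitter of the retinal input to the suprachiasmatic nucleus, the central clock of mammals.

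The readings rest on few oligonucleotides. Of the 10 genes, 7 were measured by a single probe, so the probes behind the main values are printed here from the array files, 5′ to 3′. Per1 and Nr1d1 are shown whole because both probes span an intron and hold 1 reading frame without a stop; of Cry2 and Bhlhe40 only the first 30 of 60 bases are shown.
Per1 probe: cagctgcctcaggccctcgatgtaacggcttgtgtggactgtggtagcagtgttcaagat
Nr1d1 probe: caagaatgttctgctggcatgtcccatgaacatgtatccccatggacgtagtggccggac
Cry2 probe, first 30 bases: cagggctgtttcttgacttccagacataag
Bhlhe40 probe, first 30 bases: ttttgtgactagcttactacggaaccgaaa
On rat build rn4 the array annotation places the Per1 probe at chr10:55867840-55868424, a span of 585 bases for 60 bases of oligonucleotide, and the Nr1d1 probe at chr10:87543165-87543519, a span of 355 bases. The Cry2 probe lies at chr3:76802827-76802886 and the Bhlhe40 probe at chr4:144145007-144145066, each without a gap. RefSeq assigns the accessions of all 4 probes to these genes.

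Signals were well above background for most of the genes. Of the 15 probes, 11 passed the filter for the fits below (on both arrays of 1 or more time points, one of the channels well above background), and the brightest probes of 9 genes did so at all 6 time points. Per3, a period gene whose 3 probes were well above background on no array, has no fold here. Clock has 3 probes and Nr1d2 has 2. In both genes the other probes were well above background with PACAP38 on at most 5 and with control on at most 3 of the 12 arrays. No level of one probe is set against that of another, since their brightness depends on the oligonucleotide.

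Across the arrays, 39.8 to 48.9% of the spots in the PACAP38 channel and 38.4 to 49.6% of those in the control channel were well above background. The cells carried their own markers: the control channel of all 12 arrays showed the 7 chromaffin and sympathoadrenal markers read here (Th, Dbh, Ddc, Chga, Chgb, Slc18a1, Phox2a) well above background. Of 7 markers of other cell types, read by the brightest probe, Gfap, Pecam1, Ptprc and Alb were well above background on no array. Mbp was so with PACAP38 on 4 and with control on 3 of the 12 arrays, Col1a1 on every array, and Pnmt has no probe of that name. By this probe Col1a1 with PACAP38 lay above all control pools at 5 of the 6 times, with a fold of 1.46 at 30 min and 1.16 at 120 min. A dimmer Col1a1 probe, well above background with PACAP38 on 8 and with control on 9 arrays, gave 0.989 and 0.972 there. Mbp with PACAP38 lay above all control pools at 30, 60 and 120 min, with a fold of 1.47 at the last. Its arrays gave log2 folds on opposite sides of 0 at every time. Mbp was well above background on 0 arrays at 30 min, and in each RNA on 1 of 2 arrays at 120 min, so these are not measured sizes. The chromaffin markers did not move as one at 120 min. Th stood at 1.81 and Dbh at 2.36, Chga at 1.35, Chgb at 1.25 and Slc18a1 at 1.16. Ddc at 0.901 and Phox2a at 0.743 were on the other side. None of these was counted, and their part in the results was not tested. The treatment left its mark on Fos, an immediate early gene, which was 16.8-fold higher with PACAP38 at 10 min and 18.2-fold higher at 120 min. Its control pools moved too, from 13.2 at 5 min, where Fos was not well above background, to 269.5 at 60 min, and those of Nr4a1, another immediate early gene, from 367.2 at 5 min to 4521 at 60 min, so these folds are set against controls that were not constant. The arrays lay on 3 slides, with 5 and 10 min, 15 and 30 min, and 60 and 120 min sharing a slide.

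The counting rule asked for a fold of 2 or more (higher), or 0.5 or less (lower), with a spot p-value under 0.01, from each of both arrays. By this rule Per1 and Cry2 were higher with PACAP38 at 60 and 120 min, and Nr1d1 was lower at 120 min. No clock gene probe was counted from 5 to 30 min. At 60 min the rule took 0.871% of all probes as higher and 0.376% as lower, and at 120 min 1.95% and 1.53%. Of the 15 clock gene probes, the count at 60 min was 2 higher and 0 lower, and that at 120 min 2 higher and 1 lower. The median log2 fold over the brightest probes of the 9 genes other than Per3 was 0.09 at 60 min and -0.09 at 120 min. Over all probes, dim ones included, it was 0.0035 and 0.02. Over the probes that passed the filter, the nearer comparison, it was -0.020 and -0.038.

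**Figure D1:**
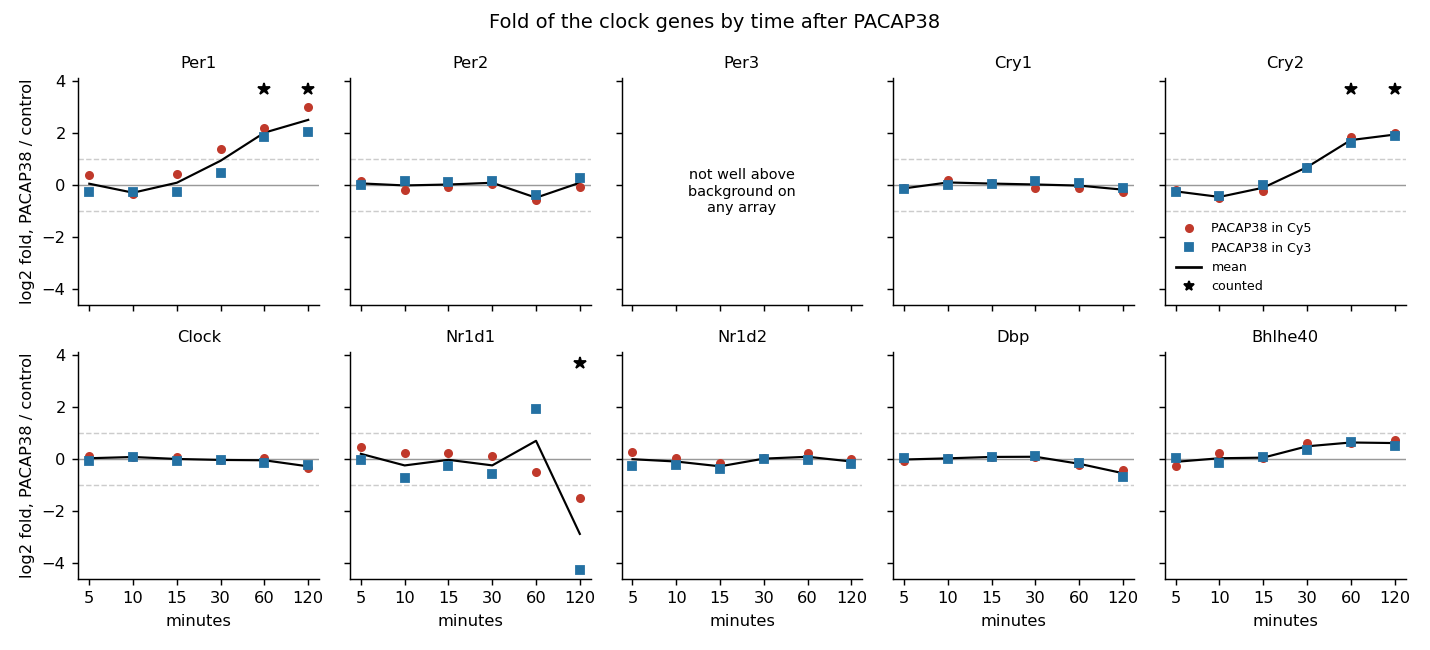
Log2 fold of PACAP38 over control (y axis) by minutes after addition (x axis, evenly spaced) for the brightest probe of each gene; circles are arrays with PACAP38 in Cy5, squares those with PACAP38 in Cy3, lines their mean, dashed lines a fold of 2 and 0.5, and stars the counted time points. Per1 and Cry2 leave the zero line from 30 min and reach means of 2.51 and 1.94 at 120 min. Both arrays of Nr1d1 point opposite ways at every time from 5 to 60 min, most widely at 60 min, and Per3 has no fold.

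The period genes, which encode the repressors PER1 to PER3, were measured by 2 of their 3 members. For Per1, signals of the 6 control pools, scaled between arrays, were 91.0, 118.7, 97.7, 100.1, 129.7 and 136.1 in the order of the 6 times. The PACAP38 pools gave 94.4, 96.9, 104.1, 191.6, 524.8 and 773.7 in the same order. The PACAP38 pools of the first 15 min lay within the range of the controls, and those of 30, 60 and 120 min lay above every control pool. Its fold was 1.92 at 30 min, where the arrays gave 2.65 and 1.38 and the probe was not counted. At 60 min the fold was 4.05, with 4.60 on one array and 3.56 on the other. At 120 min it was 5.68, with 7.94 and 4.07, the highest fold among the clock genes. Among the control pools, the highest signal was 136.1 and the lowest 91.0.

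Per2, the paralog that shares this role, stayed near its control. Its control pools ranged from 520.7 to 710.4 and its PACAP38 pools from 454.6 to 743.2. The fold was between 0.991 and 1.06 at 5 of the 6 time points. The exception was 60 min, at 0.715, with 0.672 and 0.759 on the arrays, where the PACAP38 pool lay below every control pool; at 120 min the fold was 1.06 again. At 60 min, Per1 thus stood at 4.05 and Per2 at 0.715 on the same arrays, a difference between genes that was not tested.

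The cryptochromes are partners of the PER proteins and the stronger repressors of CLOCK and BMAL1. Cry2 signals in the control pools, from the first to the last time, were 50.2, 53.0, 37.0, 46.8, 47.8 and 50.4. In the PACAP38 pools they were 42.4, 38.7, 34.5, 75.4, 158.5 and 193.7. From 30 min on, every PACAP38 pool lay above all control pools. The fold at 30 min was 1.61. At 60 min it was 3.32 (3.56 and 3.09 on the arrays), and at 120 min it was 3.84 (4.0 and 3.68). Both arrays of either time gave near values. Before that, at 10 min, the fold was 0.729, with 0.712 and 0.747. Cry1 had control pools between 3259 and 5121, and its fold ranged from 0.885 to 1.07 over the 6 time points. The difference between both cryptochromes was not tested.

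**Figure D2:**
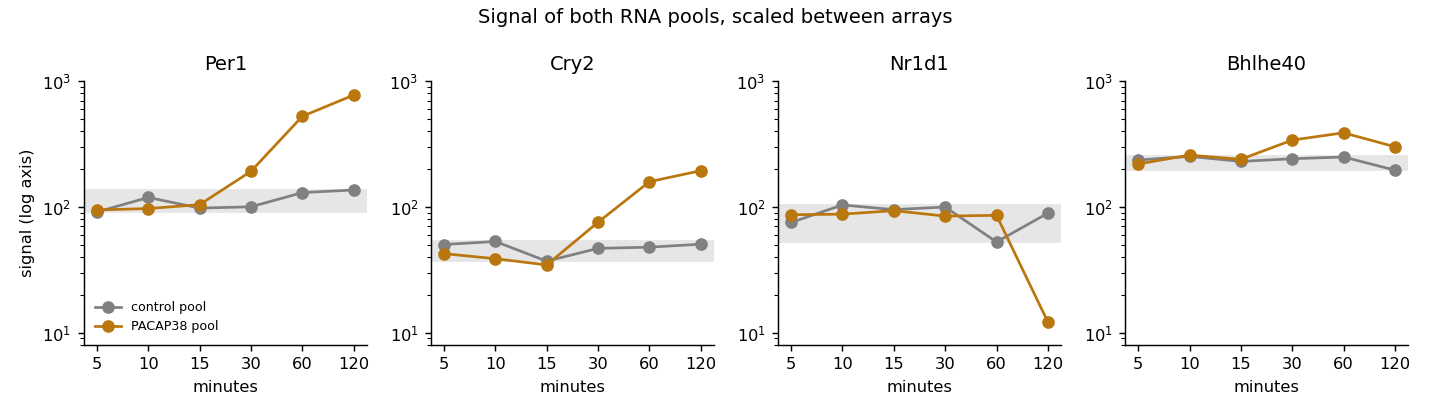
Processed signal of the control pool (grey) and the PACAP38 pool (brown), mean of both arrays after scaling between arrays, on a log axis against minutes; the grey band is the range of the 6 control pools. Per1, Cry2 and Bhlhe40 with PACAP38 lie above the band at 30, 60 and 120 min, Bhlhe40 also just above it at 10 min and Cry2 just below it at 15 min, and Nr1d1 with PACAP38 stands at 12.1 at 120 min, a mean that includes a signal not well above background.

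The genes of the second loop and the activator gave one large value and several small ones. Nr1d1, which encodes REV-ERBα, was counted as lower at 120 min. The PACAP38 signal was well above background on 1 of these 2 arrays, at 38.2 against 107.5 for control, a fold of 0.356. On the other it was 8.16 against 156.2 and not well above background, so the ratio of 0.0522 there and the mean fold of 0.136 are not measured sizes of the decrease. At 60 min the arrays disagreed in direction, with folds of 0.701 and 3.78, so the mean of 1.63 at that time describes neither. From 5 to 30 min both arrays of each time also lay on opposite sides of 1. In the order of the times they gave 1.37 and 0.969, 1.18 and 0.605, 1.17 and 0.823, and 1.08 and 0.664. The folds of 0.845 to 1.15 at these times are thus means of opposed arrays. Nr1d2, which encodes REV-ERBβ, stood at 0.825 to 1.06 throughout, with control pools between 3348 and 3630. Clock, the activator, was between 0.824 at 120 min and 1.06 at 10 min.

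Among the outputs, Dbp, a D-box activator and direct target of CLOCK and BMAL1, was 0.883 at 60 min and 0.687 at 120 min, with 0.753 and 0.627 on the arrays of the latter. Its PACAP38 pool of 120 min, at 306.9, lay below every control pool (332.9 to 521.4). Bhlhe40 encodes DEC1, an E-box repressor that is also known to respond to hormones and hypoxia. Its control pools gave 235.6, 251.7, 229.4, 241.2, 248.9 and 195.6 from 5 to 120 min, and its PACAP38 pools 219.1, 257.6, 238.6, 339.3, 387.6 and 300.1. Its fold was 1.41 at 30 min of treatment, 1.56 at 60 min and 1.53 at 120 min, and all 6 arrays of these times were at 1.27 or above. Neither gene reached the fold limit, and Bhlhe40 was counted with a limit of 1.5 in its place, by which 3.22% of all probes were higher at 1 or more time points.

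Time courses were tested across all probes with limma, on the mean log2 fold of both arrays at the 6 time points. The slope is the change in log2 fold per doubling of time. Over 20202 probes, 0.525% had a rising and 0.203% a falling slope at an adjusted p below 0.05, and 0 of the 11 clock gene probes tested was among them, while 3 had an unadjusted p below 0.05, as did 28.7% of all probes. Cry2 had a slope of 0.58 ± 0.08 (SE, limma adjusted p = 0.0506), Per1 of 0.64 ± 0.10 (limma adjusted p = 0.0552) and Bhlhe40 of 0.18 ± 0.03 (limma adjusted p = 0.0694). All 3 missed the threshold. Under time in minutes in place of its logarithm, Per1 and Cry2 passed as rising (limma adjusted p = 0.00908 and 0.0147), and Dbp and Clock as falling (limma adjusted p = 0.017 and 0.049), in a fit that called 10.2% of all probes rising and 16.2% falling, so that these 2 and 2 of 11 lie near the share of all probes. Without the 5 min arrays Per1 and Cry2 passed, beside 0.599% of all probes as rising. With only the probes well above background in a channel on both arrays of every time point, Per1, Cry2 and Bhlhe40 passed as rising, beside 1.95% of all probes so chosen. By the brightest probe, the remaining slopes ran from -0.11 ± 0.04 for Dbp to 0.01 ± 0.04 for Nr1d2. Nr1d1 is left out here, since its means at 60 and 120 min are not measured sizes. With slide as a block, the slope of Per1 was 0.33 and that of Cry2 0.26, both at a limma adjusted p = 0.894, in a fit that compares only the 2 time points of each slide. Within the slide of 5 and 10 min, the log2 fold of Per1 went from 0.05 to -0.29 and that of Cry2 from -0.24 to -0.46. On the slide of 15 and 30 min that of Per1 went from 0.09 to 0.94 and that of Cry2 from -0.10 to 0.69, and on the slide of 60 and 120 min from 2.02 to 2.51 and from 1.73 to 1.94. Both genes were thus lower at the later time of the first slide and higher at that of the other two, differences that were not tested.

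The mean log2 fold over the 6 time points was tested in the same way. It was called in 0% of the 20202 probes, higher or lower, and in 0 of the 11 clock gene probes by limma, with 1 of them (Bhlhe40, 0.29 ± 0.12) at an unadjusted p below 0.05, beside 9.13% of all probes.

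**Figure D3:**
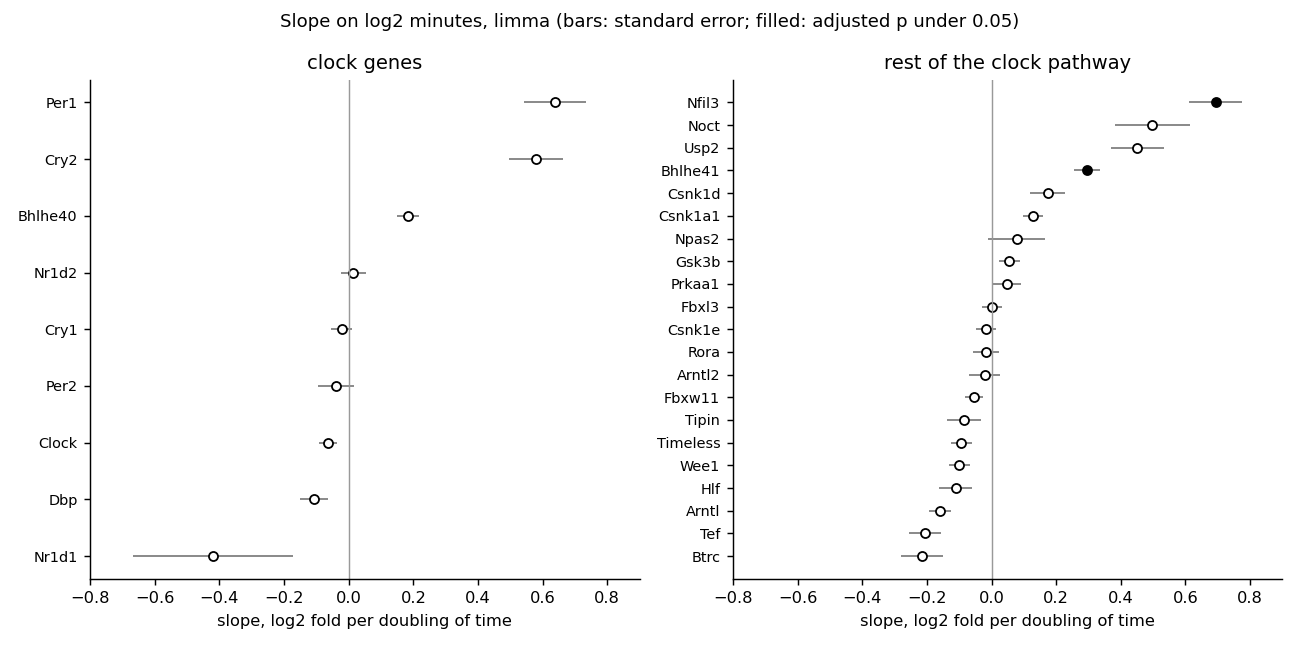
Slope of the log2 fold on log2 minutes (x axis, log2 fold per doubling of time) for the brightest probe of each gene that passed the filter, with limma's standard error as bars; filled points have an adjusted p below 0.05. Per1 and Cry2 lie far to the right at 0.64 and 0.58 with open points, the point of Nr1d1 rests on means at 60 and 120 min that are not measured sizes, and only Nfil3 and Bhlhe41 of the genes shown are filled, calls that are lost in most of the alternative fits, such as that with slide as a block.

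The rest of the clock pathway was read from a list of 24 genes, of which 23 have a probe and Ciart has none by that name. By the brightest probe, 4 were counted as higher at 1 or more time points, 0 as lower, and 19 were not counted, beside 2.09% of all probes counted as higher and 1.81% as lower at 1 or more time points. Nfil3 encodes E4BP4, the repressor that competes with DBP at D-boxes. The folds of Nfil3 were 2.54, 4.99 and 7.09 at 30, 60 and 120 min, with 8.76 and 5.74 on the last 2 arrays, and its slope was 0.69 ± 0.08 (limma adjusted p = 0.0436). Noct, the rhythmic gene of the nocturnin phosphatase, had folds of 3.22 and 4.19 at 60 and 120 min. Usp2, a rhythmic deubiquitinase that acts on clock proteins, had folds of 2.76 and 4.0. Bhlhe41 encodes DEC2, the paralog of Bhlhe40. Its fold was 1.53 at 30 min and 1.96 at 60 min, and it was counted at 120 min with a fold of 2.40, with a slope of 0.30 ± 0.04 (limma adjusted p = 0.0471). Its second, dimmer probe gave 3.04 and 3.76 at 60 and 120 min, with its control signal well above background on 1 of 2 arrays at either time. The slope calls of Nfil3 and Bhlhe41 rest on the fit: with slide as a block both had a limma adjusted p = 0.894, and with normexp and loess 0.0575 and 0.055. Both were also lost with normexp and median centring, no filter, either array alone, the trend and robust prior, and without any one of the times from 10 to 120 min, and both passed with the deposited ratio table, the stricter filter, minutes, and without 5 min.

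Of the D-box factors, Nfil3 was thus higher while the PAR bZIP activators stood below control at 120 min. Tef was 0.479 there, with 0.612 and 0.375 on the arrays, Hlf was 0.635 and Dbp 0.687, and none of the 3 was counted. Arntl, which encodes BMAL1, was 0.777 at 60 min and 0.646 at 120 min, with 0.614 and 0.679 on the arrays, and its slope was -0.16 ± 0.03 (limma adjusted p = 0.0773). Rora, an activator of Bmal1, was between 0.818 and 1.09. Btrc, which encodes the β-TrCP ubiquitin ligase that marks PER proteins for degradation, was 0.465 at 120 min with 0.554 and 0.390 on the arrays. Of the kinases that phosphorylate PER and CRY, Csnk1d was 1.77 at 120 min by its brightest probe but 1.16 by its second one, Csnk1e lay between 0.742 and 0.880 at all times, and Gsk3b between 0.907 and 1.12. Of the 21 genes of this list whose brightest probe was tested, 2 had a rising slope (Nfil3 and Bhlhe41) and 0 a falling one, beside 0.525% and 0.203% of all probes. With minutes in place of log2 minutes, 6 of the 21 had a rising and 5 a falling slope, beside 10.2% and 16.2% of all probes.

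**Figure D4:**
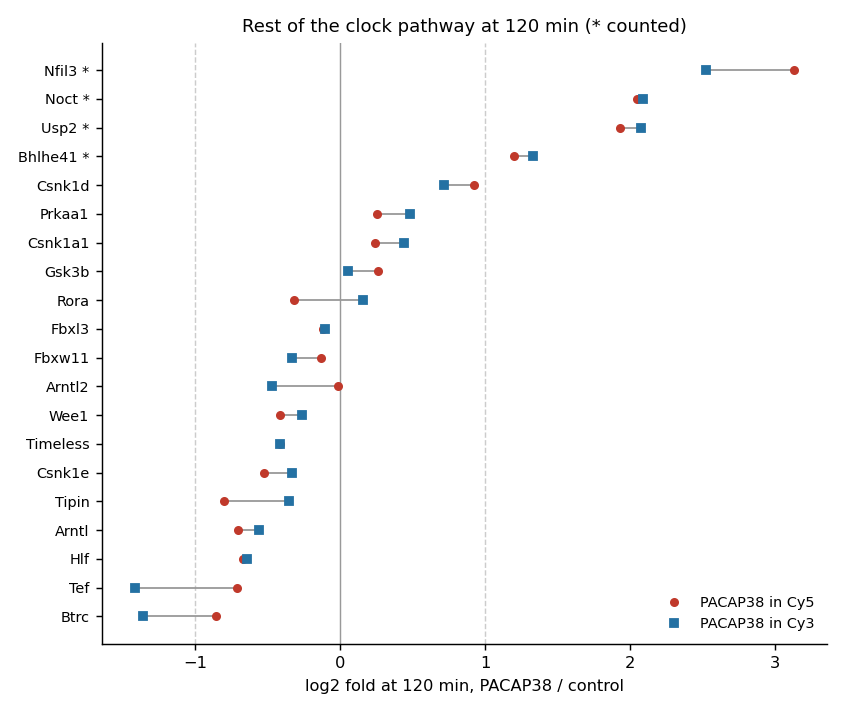
Log2 fold at 120 min (x axis) of the other clock pathway genes with at least 1 RNA well above background on both arrays, a circle for PACAP38 in Cy5 and a square for PACAP38 in Cy3, joined by a line; asterisks mark counted genes and dashed lines a fold of 2 and 0.5. Nfil3, Noct, Usp2 and Bhlhe41 lie beyond the upper limit on both arrays, and Tef and Btrc cross the lower limit on 1 array only.

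For Per1 and Cry2, the probes with the most alike time courses were sought by Pearson's r of the 6 log2 folds, among 1783 probes with a gene symbol, well above background in a channel on both arrays of all 6 time points, and with a range of at least 1 in log2 fold. For Per1 these were Cycs (r = 0.999), Arrdc3 (r = 0.997) and Crem (r = 0.997). Crem, whose inner promoter gives the cAMP-inducible repressor ICER, had folds of 9.88 and 14.8 at 60 and 120 min, Arrdc3 of 3.63 and 4.51, and Cycs of 1.62 and 1.87. For Cry2 they were Arrdc3 (r = 0.998), Sik1 (r = 0.997) and Idi1 (r = 0.997), with Sik1, a cAMP-inducible kinase, at 12.6 and 16.9. None is given for Nr1d1, whose arrays disagreed at 60 min and whose PACAP38 signal at 120 min was well above background on 1 array. The measure compares shape and not size, all points come from the same arrays, and 6 points give many high values.

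Promoter windows of RefSeq (build GRCr8, 250 bases before to 50 after a start site) were searched on both strands for the elements by which these genes are known to be controlled. Windows were listed for 9 of the 10 genes, 11 in all, and Cry1 was not among them. The full cAMP response element TGACGTCA was in 0 of the 11 windows and in 1.83% of the 33469 windows of all genes, and the shorter TGACG, part of the former, was in 3 windows (Per2, Per3 and Nr1d2) and in 21.2% of all. The E-box CACGTG was in 2 windows (Bhlhe40 and the second Nr1d1 start; 6.42% of all), the related CACGTT in 3 (Per2, Cry2 and Nr1d1; 4.83%), the D-box TTATGNAA in 1 (Per2; 3.66%), the ROR and REV-ERB element AGGTCA in 1 (Nr1d2; 16.2%) and the CArG box in 0 (1.64%). The window of Per1 held none of these, and it surrounds a start that lies 5374 bases inside the gene as annotated, so it is not that of the outermost start. One match is shown with the stretch around it, its letters in capitals, for each gene with a match in a window at the outermost annotated start; the TGACG match of Nr1d2, which lies past the start, is not shown.
Cry2, chr3:98860606-98860685, minus strand: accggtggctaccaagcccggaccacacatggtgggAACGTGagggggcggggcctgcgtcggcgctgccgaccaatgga
Nr1d1, chr10:84231943-84232022, minus strand: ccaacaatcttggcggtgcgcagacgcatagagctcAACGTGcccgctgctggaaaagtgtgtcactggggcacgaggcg
Bhlhe40, chr4:143174200-143174273, plus strand: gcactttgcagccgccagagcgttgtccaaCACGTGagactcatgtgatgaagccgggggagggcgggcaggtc
Nr1d2, chr15:9954811-9954890, plus strand: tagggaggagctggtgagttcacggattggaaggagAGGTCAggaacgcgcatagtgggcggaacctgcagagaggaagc
The capitals of Cry2 and Nr1d1 are CACGTT read on the other strand, 212 and 174 bases before the start. Of the genes shown, Cry2 was counted as higher and Nr1d1 as lower, and Bhlhe40 and Nr1d2 were not counted. The matches are descriptions of these windows only.

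The size of the folds depended on background correction and normalization, which were changed together. With normexp background correction (offset 50) and loess in place of the processed signals, the log2 fold of Per1 was 1.2 at 60 min and 1.42 at 120 min, and it was the only clock gene still counted, beside 0.779% of all probes as higher at 1 or more time points. That of Cry2 was 0.56 and 0.61, and that of Nr1d1 at 120 min -0.32. With median centring in place of loess, Per1 stood at 1.21 and 1.25, Cry2 at 0.57 and 0.55, and no clock gene was counted.

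**Figure D5:**
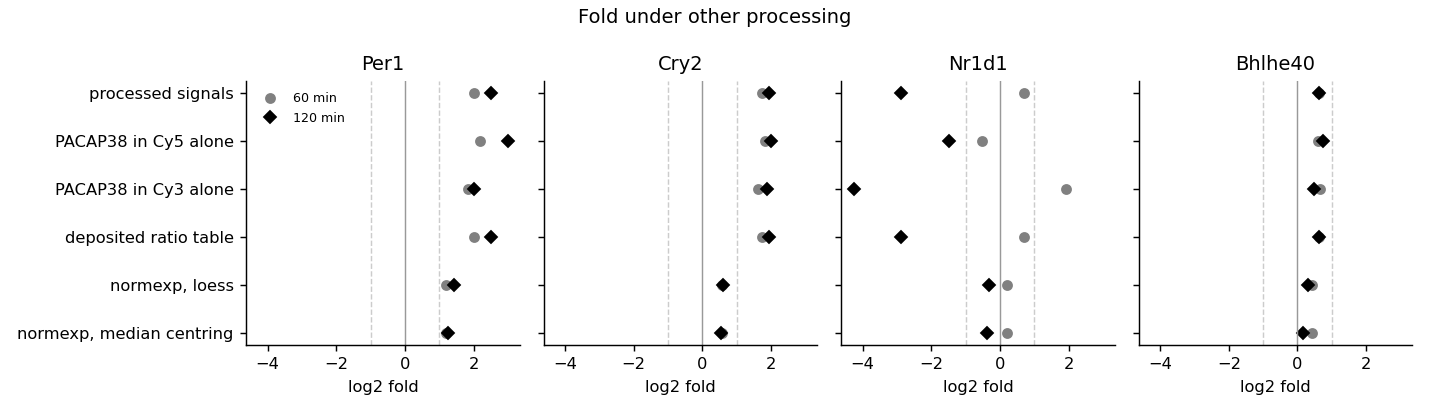
Log2 fold of PACAP38 over control (x axis) at 60 min (circles) and 120 min (diamonds) under 6 ways of processing (rows), with dashed lines at a fold of 2 and 0.5. Per1 and Cry2 stay to the right of zero in every row, Nr1d1 at 120 min, where the signal of 1 array was not well above background, moves from -2.88 to -0.32 with normexp and loess, and Nr1d1 at 60 min changes sign between both single arrays.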

How the data were processed

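Total RNA of control and PACAP38-treated PC12 cells was measured on 12 two-colour Agilent 4x44K whole rat genome arrays at 6 time points, grouped by the sample labels. The authors extracted the arrays with Agilent Feature Extraction (the sources used here name different versions). As deposited, processed intensity values of both dyes had background and spatial trend removed and were dye-normalized by LOWESS, and scanner mean and background intensity values stand beside them. The deposited p-value of a spot comes from the authors' software, and the deposited table of ratios holds log10 of processed Cy5 over Cy3, not turned for the dye exchange.

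Of 45018 spots per array, 1639 control spots and 197 to 267 outlier spots were left out, no spot was saturated, and log2 ratios were turned to PACAP38 over control and averaged over spots and both arrays. Channel levels were scaled between arrays by Aquantile. Slopes and means were fitted with limma 3.58.1 in R 4.3.3 over 20202 probes, with Benjamini-Hochberg adjustment over all of them. Data were also simulated with 200 changed probes, exact slopes or means, and independent normal noise at the residual SD of each probe. Slopes of 0.5 and 1 were recovered in 84 and 95.5%, and means of these sizes in 55 and 91.5%. Of the slope calls 10 of 178 and 20 of 211 were false, and of the mean calls 11 of 121 and 9 of 192. The simulation held no error shared by a slide or a time point, so these shares do not cover such errors in the arrays. Other steps used Python 3.11.15, pandas 2.3.3, numpy 2.4.6 and matplotlib 3.10.9. Precision is limited by the number of arrays and by signal over background, and both arrays of a time hold the same pools, so the spread between them is technical. The value of a gene is its brightest probe (highest mean processed signal); all 10 members are named, pathway genes when counted, Arntl always, and others to complete a group after their values were seen. Members, lists and tests were chosen with earlier results of these data known. Alternatives were other fold and p limits, 1 array alone, other background correction and normalization, the deposited ratio table, other filters, left-out time points, another prior, minutes, and slide as a block. A few items of the lists are not reported here.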

Additional observations from a re-analysis of the deposited data

Results flagged for a closer look

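For 6 clock genes both arrays of one time point lay above 0 and both arrays of another lay below 0, and these differences between time points were not tested. Per1 had a log2 fold of 2.51 at 120 min and -0.29 at 10 min, and Cry2 of 1.94 at 120 min and -0.46 at 10 min. The other 4 were small on the high side: Per2 had 0.0898 at 30 min and -0.48 at 60 min, Dbp 0.091 at 30 min and -0.54 at 120 min, Clock 0.0819 at 10 min and -0.28 at 120 min, and Cry1 0.10 at 10 min and -0.18 at 120 min. The groups of 2 arrays are too small for an outlier test.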

How the results depend on the processing

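The count of 3 clock gene probes higher or lower at any time point (Per1, Cry2 and Nr1d1) was 1 with normexp and loess (Per1) and 0 with normexp and median centring, where the cause was not tested. It was 3 or 4 under the other limits, filters and sources tried, and 3 with either array alone, although the array with PACAP38 in Cy3 counted Nr1d1 as higher at 60 min. The count of 0 clock gene probes with a slope past the threshold was 3 with the stricter filter on dim probes (Per1, Cry2 and Bhlhe40), which tested fewer probes and called 309 rising and 233 falling of 15880, and 4 with minutes in place of log2 minutes, which called 2068 rising and 3266 falling of 20202 against 106 and 41 with log2 minutes; leaving out 1 time point gave 0 to 2, the 2 being Per1 and Cry2 without 5 min, and 1 array alone gave 0. The adjusted p of Per1's slope ranged from 0.00908 to 0.894 over these settings. The 2 rising slopes among the other pathway genes were 0 with slide as a block, with either normexp setting, with no filter, with either array alone, with the trend and robust prior, and without any one time point other than 5 min. They were 3 with the stricter filter. With minutes they were 6, and 5 genes had a falling slope, in the fit that called 2068 rising and 3266 falling of 20202. The count of 0 for the mean over time points was 0 throughout, while the calls over all probes varied. From the arrays with PACAP38 in Cy3 alone, 1392 of 20202 probes were called higher and 2139 lower. From those with PACAP38 in Cy5 alone they were 1365 and 944. Log2 folds recomputed per gene and time point from both arrays were set against the spread of both arrays. With normexp and loess 21 of 60 moved by more than this spread, and with normexp and median centring 30 of 60. With the mean of the measured probes of Clock and Nr1d2, 6 of 12 moved. The deposited ratios come from the same processed signals, so their 60 values, of which none moved, are no test of stability. Each set of 60 includes Per3, whose dim values did not move in any of them. Values of 1 array alone define the spread and are not counted here. No counted value changed sign. No paired analysis was possible because each array already sets both pools of a time against each other, and the labels number no replicates across time points. Signal over background limits the dim probes, with Per3 well above it on 0 arrays and Nr1d1 with PACAP38 on 11 of 12.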
